A study of Mus musculus with 8 samples.

Results

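The 38 genes described here encode scaffold and signaling proteins of the postsynaptic density. They were taken by gene symbol from a list that names the main scaffold families, calcium/calmodulin-dependent kinase II (CaMKII), actin regulators of the dendritic spine and regulators of small GTPases. All 38 were found among the 15039 genes of the deposited expression table. The libraries came from the prefrontal cortex (PFC) of wild-type C57BL/6NCrljOri mice, which were males aged 6 weeks when the virus was given. An adeno-associated virus (AAV2/1) was injected bilaterally into the PFC, and the tissue was dissected 4 weeks later. One group of 4 libraries came from mice given the vector that expresses mouse Rnf146 together with eGFP, and the other 4 from control mice given the eGFP vector. According to the study, the Rnf146 mice used for sequencing had been found to overexpress Rnf146 and to have social deficits. Both vectors used the human synapsin promoter, which drives expression in neurons, while the RNA came from the whole dissected tissue. The labels do not say whether a library was made from 1 mouse, and p-values measure only the spread between these samples.

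The postsynaptic density is a protein layer beneath the membrane of excitatory synapses that holds glutamate receptors opposite the site of transmitter release. Membrane-associated guanylate kinases such as PSD-95 bind receptors directly, SAPAP proteins link them to Shank, and Shank binds Homer and, through partners, the actin skeleton of the spine. CaMKII decodes calcium entry, and regulators of Ras, Arf and Rap GTPases adjust spine shape and receptor traffic. Rnf146 is a ubiquitin ligase that directs proteins modified by tankyrase, among them Axin, to degradation. The comparison addresses whether the genes of this structure differed in RNA level when Rnf146 was overexpressed in the PFC.

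The deposited values are on a log2 scale and run from 7.86 to 18.8. For every gene, the eGFP and Rnf146 values of libraries with the same replicate number add up to the same sum in all 4 pairs. Each gene therefore holds its mean and 4 differences, and the values of single libraries do not show how much libraries of a group vary. The labels do not say whether same-numbered libraries shared a batch, cage or day, so what a pair stands for is unknown. A difference here is always taken within a pair, Rnf146 minus eGFP, on the log2 scale, and each mean difference is given ± its SD over n = 4 pairs. The limma test blocked on the replicate number, and a gene counts as called where its adjusted p does not exceed 0.1. *Rnf146* itself differed by 2.51 to 2.82 in the 4 pairs (adjusted p = 3.2e-07 from limma). Markers of cortical excitatory neurons were measured in every library, with list means between 11.1 and 11.4. The number of reads per library is unknown, and so is the precision that counting gives. In bulk tissue, fewer cells of a type and less RNA per cell cannot be told apart.

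Of the 38 postsynaptic density genes, 1 was called, *Synpo*, which was lower in Rnf146-overexpressing mice. Over all genes, 1.25% were called in either direction and 0.432% were called lower. None of the members was called higher, against 0.818% of all genes. Without the replicate block, which takes the centred values for 8 independent libraries, 10 members were called, 8 lower and 2 higher, where 21.5% of all genes were called (10.4% lower and 11% higher). The mean difference was below 0 in 29 of the 38 members, against 49.5% of all genes. Since the members were chosen with earlier results of these data known, this excess is a description and was not tested. The mean difference ran from -0.32 in *Synpo* to 0.22 in *Cyfip1*, with a median of -0.05, where the median over all genes was 0.00. The median of the members was -0.03 without pair 1, -0.03 after quantile normalization and -0.07 without pair 3. It was -0.05 in the other refits. By pair, the median of the members was -0.11, -0.04, 0.02 and -0.06, so pair 3 stood on the other side of 0. In pair 1, 29 members were below 0, and in pair 3, 17 were.

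The values of the 2 groups did not overlap in 7 members, of which 6 were lower and 1 was higher. In centred values this is the same as a shared direction in all 4 pairs, which 10.2% of all genes showed downward and 10.4% upward. The 6 lower members were *Dlg4*, *Dlgap4*, *Camk2a*, *Synpo*, *Baiap2* and *Iqsec2*, or 15.8% of the list, and the higher one was *Cyfip1*. An unadjusted p under 0.05 was given to 8 members with a lower mean and to 1 with a higher mean, against 5.98% and 6.45% of all genes. The members were strongly expressed, with 29 of 38 in the top 10% of mean values. Among the 1504 genes of that top 10%, 53.7% had a mean below 0, 15.8% were lower in all 4 pairs and 10.4% had an unadjusted p under 0.05 with a lower mean. Apart from *Synpo*, the 95% intervals of 29 of 37 members included 0. For 25 of the 38, the interval lay within 0.25 of 0.

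**Figure D1:**
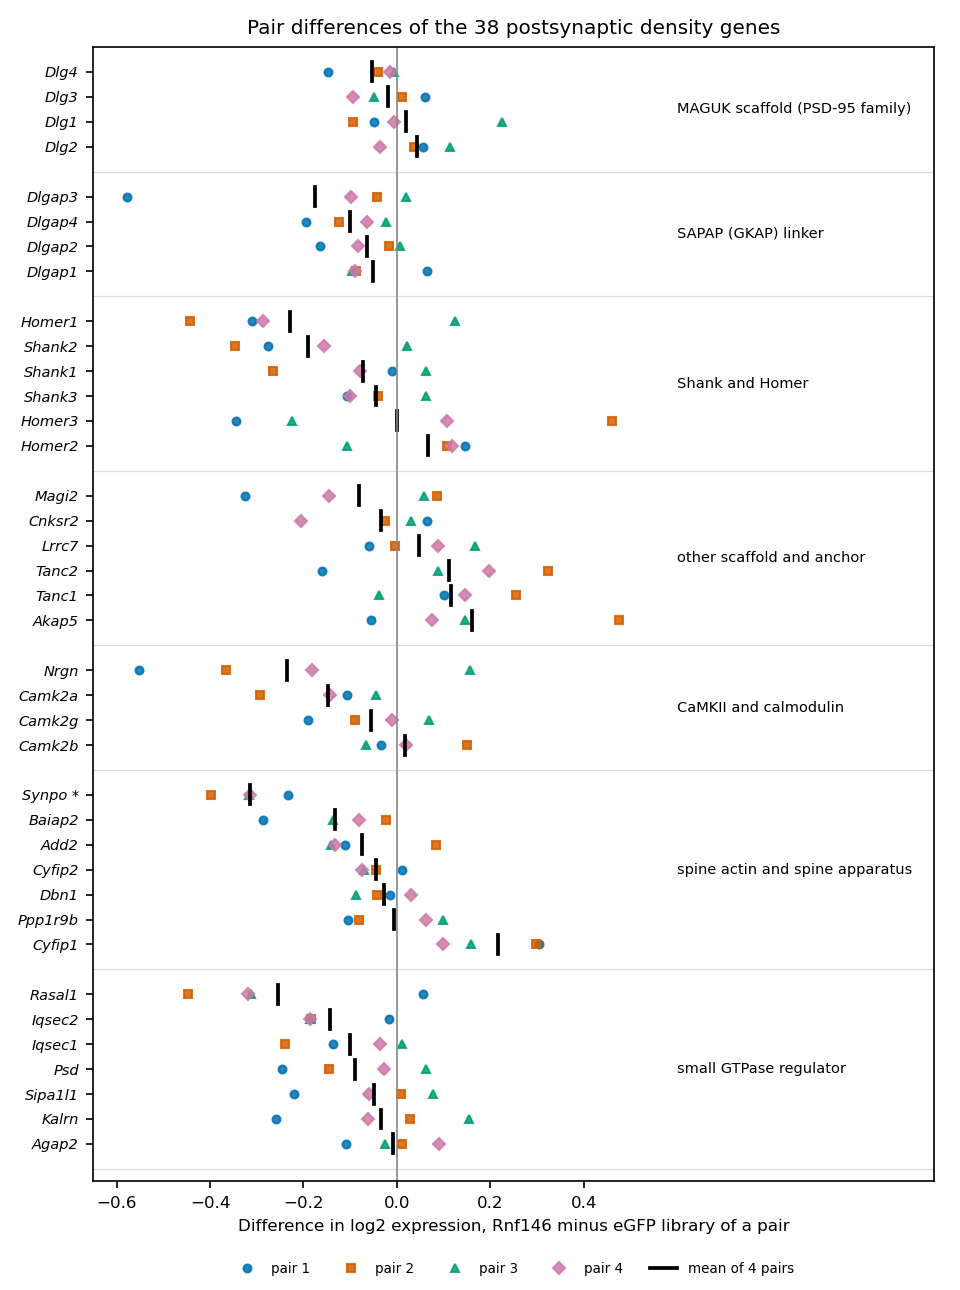
Difference in log2 expression between the Rnf146 and the eGFP library of each of the 4 pairs (symbols) and their mean (black bar) for the 38 genes, grouped by role, with an asterisk at an adjusted p of 0.1 or less. *Synpo* is the gene with an asterisk and lies between -0.40 and -0.23, while most genes have pairs on both sides of 0.

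**Figure D2:**
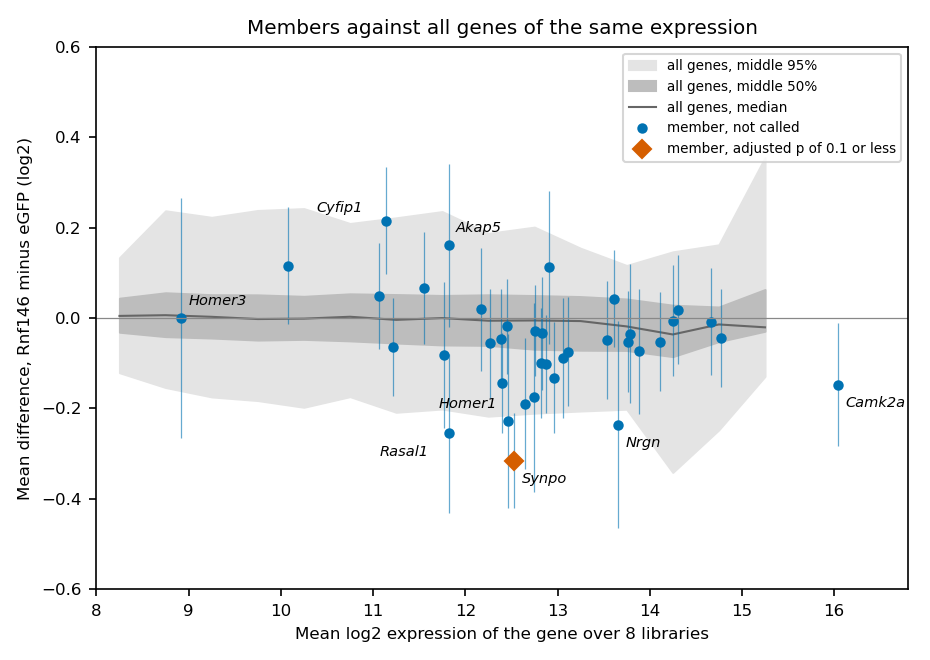
Mean log2 difference (Rnf146 minus eGFP, y axis) against mean log2 expression over 8 libraries (x axis), with the 38 members as points with limma's 95% intervals and all genes as grey bands in expression bins of at least 20 genes. *Synpo*, *Rasal1*, *Homer1* and *Nrgn* lie at the lower edge of the members, between -0.32 and -0.23.

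The genes of the spine's actin skeleton and spine apparatus held both ends of the range. *Synpo* encodes synaptopodin, an actin-binding protein needed for the spine apparatus, a stack of endoplasmic reticulum in mature spines. It lies on chromosome 18 (GRCm39, 60726087 to 60793214, minus strand). Its log2 expression was 12.65, 12.73, 12.69 and 12.69 in the 4 eGFP libraries and 12.41, 12.33, 12.37 and 12.37 in the Rnf146 libraries with the same numbers. The difference was thus below 0 in all 4 pairs, as in 10.2% of all genes, and was -0.23 in the pair that differed least. The mean difference was -0.32 ± 0.07, with an adjusted p of 0.029 from limma. With pair 2 or pair 4 left out, the mean was -0.29 and -0.32, and the adjusted p rose to 0.165 and 0.223. These fits called 42 (0.279%) and 14 (0.0931%) of all genes, against 188 with the 4 pairs. *Synpo* is among the genes that the study picked as downregulated from the same libraries, so its call is no independent support for that choice.

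*Cyfip1* and *Cyfip2* encode paralogous subunits of the WAVE complex, which starts branched actin, and both also bind the translational repressor FMRP. *Cyfip1* (chromosome 7, 55491479 to 55582381, plus strand) was the only member whose difference was above 0 in all 4 pairs. Its values were 10.98, 10.99, 11.06 and 11.09 in the eGFP libraries and 11.29, 11.29, 11.22 and 11.19 in the Rnf146 libraries. The mean difference of 0.22 ± 0.10 had a 95% interval of 0.10 to 0.33, and its adjusted p of 0.140 from limma missed the threshold. *Cyfip2* had a mean difference of -0.04 ± 0.04, and its interval ran from -0.15 to 0.06. The difference between the paralogs was not tested.

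*Baiap2*, which encodes the IRSp53 adaptor between Rac and the actin machinery, was at 13.10, 12.97, 13.03 and 13.00 in the eGFP libraries and 12.81, 12.95, 12.89 and 12.92 in the Rnf146 libraries. All 4 pairs were lower, by as little as 0.02 in pair 2, and the mean difference was -0.13 ± 0.11 with an adjusted p of 0.368 from limma. *Add2*, encoding the spectrin-actin linker β-adducin, differed by -0.11, -0.14 and -0.13 in pairs 1, 3 and 4 and by 0.08 in pair 2. *Dbn1* and *Ppp1r9b* encode drebrin and spinophilin, which bind actin filaments in spines. Their mean differences were -0.03 ± 0.05 and -0.01 ± 0.10, within the spread over the pairs. The direction of *Dbn1* turned after correction for GC content and length, and that of *Ppp1r9b* after the same correction, after quantile normalization, with array weights and without pair 1 or pair 2.

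**Figure D3:**
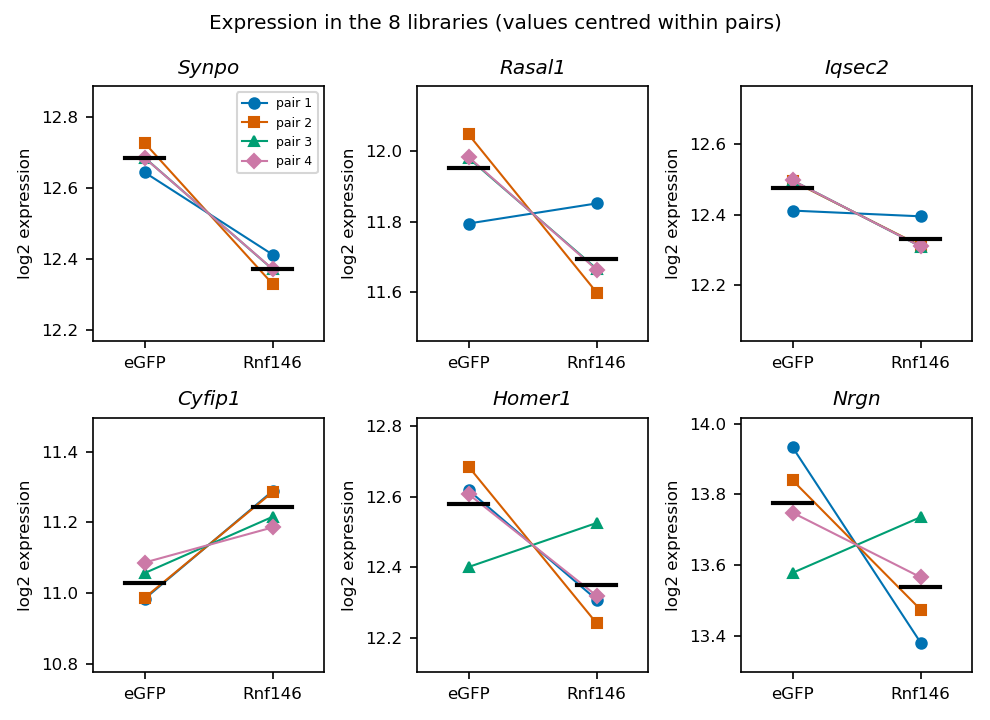
Log2 expression of 6 members in the 4 eGFP and the 4 Rnf146 libraries, with a line joining the libraries of a pair and a black bar at each group's mean; all panels span the same number of log2 units. In *Synpo* and *Cyfip1* all 4 lines run one way, in *Rasal1* pair 1 and in *Homer1* and *Nrgn* pair 3 run against the others, and in *Iqsec2* pair 1 is nearly level.

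All 7 regulators of small GTPases had a mean difference below 0, against 49.5% of all genes. Limma called 0 of the 7, against 1.25% of all genes. Of the 7 genes, *Rasal1* and *Iqsec2* had an unadjusted p under 0.05, where 5.98% of all genes had one with a lower mean. *Rasal1* encodes a Ras GTPase-activating protein that responds to calcium, and lies on chromosome 5 (120786838 to 120820079, plus strand). It was at 11.79, 12.05, 11.98 and 11.98 in the eGFP libraries and at 11.85, 11.60, 11.67 and 11.66 in the Rnf146 libraries. Pairs 2, 3 and 4 differed by -0.45, -0.31 and -0.32, while pair 1 differed by 0.06. The mean of -0.26 ± 0.22 had an adjusted p of 0.224 from limma. Without pair 1, the pair that ran against the others, the mean was -0.36 and the adjusted p 0.024, in a fit that called 2.8% of all genes. With pair 2, 3 or 4 left out instead, the adjusted p from limma was 0.608, 0.396 and 0.534. With array weights, which called 2.36% of all genes, the adjusted p of *Rasal1* was 0.098.

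*Iqsec2*, an X-linked gene encoding an exchange factor for Arf6, showed a like split between the pairs. Its difference was -0.18, -0.19 and -0.19 in pairs 2, 3 and 4 and -0.02 in pair 1. The libraries stood at 12.41, 12.49, 12.50 and 12.50 with eGFP and at 12.40, 12.31, 12.31 and 12.31 with Rnf146. The mean was -0.14 ± 0.08 with an adjusted p of 0.280 from limma. *Iqsec1* and *Psd*, which encode further exchange factors for Arf6, had mean differences of -0.10 ± 0.11 and -0.09 ± 0.13, with pair 3 just above 0 in both. *Kalrn*, *Sipa1l1* and *Agap2* encode kalirin, which activates Rac, the Rap regulator SPAR and the GTPase PIKE. Their means lay between -0.05 and -0.01, each smaller than its spread over the pairs. *Agap2* differed by -0.11, 0.01, -0.03 and 0.09. The sign of all 3 turned when pair 1 was left out, and that of *Agap2* also after quantile normalization, with array weights and after correction for GC content and length.

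In the PSD-95 family, the 4 mean differences ran from -0.05 to 0.04. Limma called 0 of the 4 genes, against 1.25% of all genes. It gave 0 of the 4 an unadjusted p under 0.05, against 12.4% of all genes. *Dlg4*, which encodes PSD-95, the main scaffold of the density, lies on chromosome 11 (69907768 to 69938348, plus strand). Its expression was 14.19, 14.13, 14.12 and 14.12 in the eGFP libraries and 14.04, 14.09, 14.11 and 14.10 in the Rnf146 libraries. It was lower in all 4 pairs, by 0.15 in pair 1 and by 0.01 to 0.04 in the other 3. The mean, -0.05 ± 0.07, lay within that spread, with a 95% interval of -0.16 to 0.06 (adjusted p = 0.720 from limma). *Dlg1*, *Dlg2* and *Dlg3*, encoding SAP97, PSD-93 and SAP102, had mean differences of 0.02, 0.04 and -0.02. Their adjusted p-values from limma ran from 0.764 to 0.934. *Dlg2* differed by 0.06, 0.04, 0.11 and -0.04 in the 4 pairs. *Dlg1* was at 0.23 in pair 3 and below 0 in the other pairs.

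The SAPAP genes *Dlgap1* to *Dlgap4* encode the linkers between PSD-95 and Shank. Against 49.5% of all genes, all 4 had a mean below 0. Of these, *Dlgap3* had the largest mean, -0.18 ± 0.27, which came mainly from pair 1. Its expression in that pair was 13.04 with eGFP and 12.46 with Rnf146, a difference of -0.58, against -0.04, 0.02 and -0.10 in pairs 2 to 4. Without pair 1 the mean was -0.04. *Dlgap4* was lower in all 4 pairs, at -0.19, -0.12, -0.02 and -0.06, with a mean of -0.10 ± 0.07 (adjusted p = 0.436 from limma). *Dlgap2* had a mean of -0.06 ± 0.08. *Dlgap1* differed by 0.06 in pair 1 and by -0.09 to -0.10 in the others.

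Among the Shank and Homer genes, 0 of 6 were called by limma, against 1.25% of all genes. *Shank2* and *Homer1* had an unadjusted p under 0.05, where 5.98% of all genes had one with a lower mean. Shank proteins are the master scaffolds of the deeper layer of the density, and Homer proteins tie Shank to metabotropic glutamate receptors and calcium stores. *Homer1* (chromosome 13, 93436143 to 93541637, plus strand) was at 12.62, 12.68, 12.40 and 12.61 in the eGFP libraries and at 12.31, 12.24, 12.53 and 12.32 in the Rnf146 libraries. It differed by -0.31, -0.44 and -0.29 in pairs 1, 2 and 4 and by 0.12 in pair 3. The mean was -0.23 ± 0.25 with an adjusted p of 0.320 from limma. Without pair 3, the pair that ran against the others, it was -0.35 with an adjusted p of 0.062, in a fit that called 1.12% of all genes. With pair 1, 2 or 4 left out instead, the adjusted p of *Homer1* from limma was 0.426, 0.704 and 0.599. The gene makes long scaffold forms and a short form induced by neuronal activity, and the gene-level value does not separate them.

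*Shank2* was at 12.79, 12.82, 12.64 and 12.73 in the eGFP libraries and at 12.51, 12.48, 12.66 and 12.57 in the Rnf146 libraries. Here too pair 3 was the one above 0, by 0.02, and the mean was -0.19 ± 0.16 with an adjusted p of 0.276 from limma. *Shank1* and *Shank3* had means of -0.07 ± 0.14 and -0.05 ± 0.08, and pair 3 was above 0 in both. *Homer2* differed by 0.15, 0.11 and 0.12 in pairs 1, 2 and 4 and by -0.11 in pair 3, the opposite of *Homer1* in every pair, with a mean of 0.07 ± 0.12. *Homer3* had the lowest mean value of the 38, 8.92, which is 1.06 above the lowest value in the table. Its pairs ran from -0.34 to 0.46, and its mean of -0.00063 ± 0.36 had the largest SD of the list.

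The other scaffolds and anchors had the highest median difference of the 7 role groups, 0.08. *Akap5*, which encodes the anchor that brings protein kinase A and calcineurin to PSD-95, had the largest mean of them, 0.16 ± 0.23. Its difference was 0.48 in pair 2, 0.15 in pair 3, 0.08 in pair 4 and -0.06 in pair 1, and the adjusted p was 0.454 from limma. *Tanc1* and *Tanc2*, encoding large scaffolds that bind PSD-95, had means of 0.12 ± 0.12 and 0.11 ± 0.21, each above 0 in 3 of the 4 pairs. *Lrrc7*, encoding densin-180, which binds CaMKII, had 0.05 ± 0.10. *Cnksr2* and *Magi2*, encoding a Ras pathway scaffold and the scaffold S-SCAM, had -0.03 ± 0.12 and -0.08 ± 0.19. *Magi2* differed by -0.33, 0.09, 0.06 and -0.15 in the 4 pairs. In these 5 genes the mean was smaller than the spread or about as large.

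*Camk2a* encodes the α subunit of CaMKII, the kinase required for long-term potentiation, and was lower in all 4 pairs. It stood at 16.09, 16.18, 16.06 and 16.11 in the eGFP libraries and at 15.98, 15.89, 16.01 and 15.97 in the Rnf146 libraries. The difference was -0.29 in pair 2 against -0.05 in pair 3. The mean of -0.15 ± 0.11 had a 95% interval of -0.28 to -0.01, and limma gave an adjusted p of 0.364. *Camk2b* and *Camk2g*, encoding the β and γ subunits, had means of 0.02 ± 0.10 and -0.06 ± 0.11, and the sign of *Camk2b*, which differed by -0.03, 0.15, -0.07 and 0.02 in the 4 pairs, turned without pair 2.

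*Nrgn* (chromosome 9, 37452275 to 37464689, minus strand) encodes neurogranin, a small protein of cortical spines that holds calmodulin until calcium rises. Its expression was 13.93, 13.84, 13.58 and 13.75 in the eGFP libraries and 13.38, 13.47, 13.74 and 13.57 in the Rnf146 libraries. The difference was -0.55, -0.37 and -0.18 in pairs 1, 2 and 4 and 0.16 in pair 3. The mean of -0.24 ± 0.30 was smaller than its SD, with a 95% interval of -0.46 to -0.007 (adjusted p = 0.388 from limma). In the group of CaMKII and calmodulin genes, limma called 0 of 4, against 1.25% of all genes. *Camk2a* and *Nrgn* had an unadjusted p under 0.05 from limma, where 5.98% of all genes had one with a lower mean.

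Some markers of cell types also differed between the groups, by amounts that varied between the pairs. The 10 markers of cortical excitatory neurons, which carry most of the synapses in question, averaged -0.24, -0.36, -0.03 and -0.18 in the 4 pairs. Of these 10, 9 had a mean below 0 and 2 were called, *Slc17a7* and *Neurod2*, both of which the study picked from these libraries. The list mean was 11.3 to 11.4 in the eGFP libraries and 11.1 to 11.2 in the Rnf146 libraries. Pair 3, in which this list differed least, was also the pair in which *Homer1*, *Shank2*, *Nrgn* and the median of the 38 members were above 0. In pair 2, in which the list was lowest, these 3 genes differed by -0.44, -0.35 and -0.37. The median of the members was -0.04 in pair 2 and was lowest in pair 1, at -0.11. *Synpo* differed by -0.32 in pair 3. The part of these markers in the results was not tested.

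The striatum and the septum lie close to the PFC, and their markers had higher mean values in Rnf146 libraries. All 11 markers of striatal medium spiny neurons had a mean above 0, and the list averaged -0.10, 1.29, 0.69 and 0.26 in the 4 pairs, at 9.77 to 10.5 in the eGFP libraries and 10.4 to 11.1 in the Rnf146 libraries. The oligodendrocyte list of 9 genes, all with a mean above 0, averaged -0.17, 0.46, 0.84 and 0.53, at 11.9 to 12.4 and 12.2 to 12.7 in the same order. Of 9 septal and basal forebrain markers, 5 were in the table, all 5 were called higher, and they averaged 0.54, 0.72, 0.33 and 0.58, at 9.21 to 9.41 against 9.74 to 9.93. The defining markers *Lhx8*, *Chat*, *Nkx2-1* and *Gbx2* of that list had no row in the table. In pair 1, where the striatal and oligodendrocyte lists were below 0, *Rasal1* differed by 0.06 and *Iqsec2* by -0.02, while *Synpo* differed by -0.23 and the median of the 38 members was -0.11, the lowest of the 4 pairs. Microglial markers were below 0 in the mean in 6 of 6 genes and averaged -0.18 ± 0.08, the 7 astrocyte markers -0.04 ± 0.06 and the 4 endothelial markers 0.01 ± 0.09. Of the 7 interneuron markers 3 were called higher, *Gad1*, *Gad2* and *Slc32a1*, which medium spiny neurons also express, and the other 4, *Pvalb*, *Sst*, *Vip* and *Lhx6*, had means of -0.03, -0.06, -0.23 and -0.11 and were not called. The list averaged 0.17 ± 0.05, with a median of -0.03 over its genes. The part of these lists in the results was not tested.

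**Figure D4:**
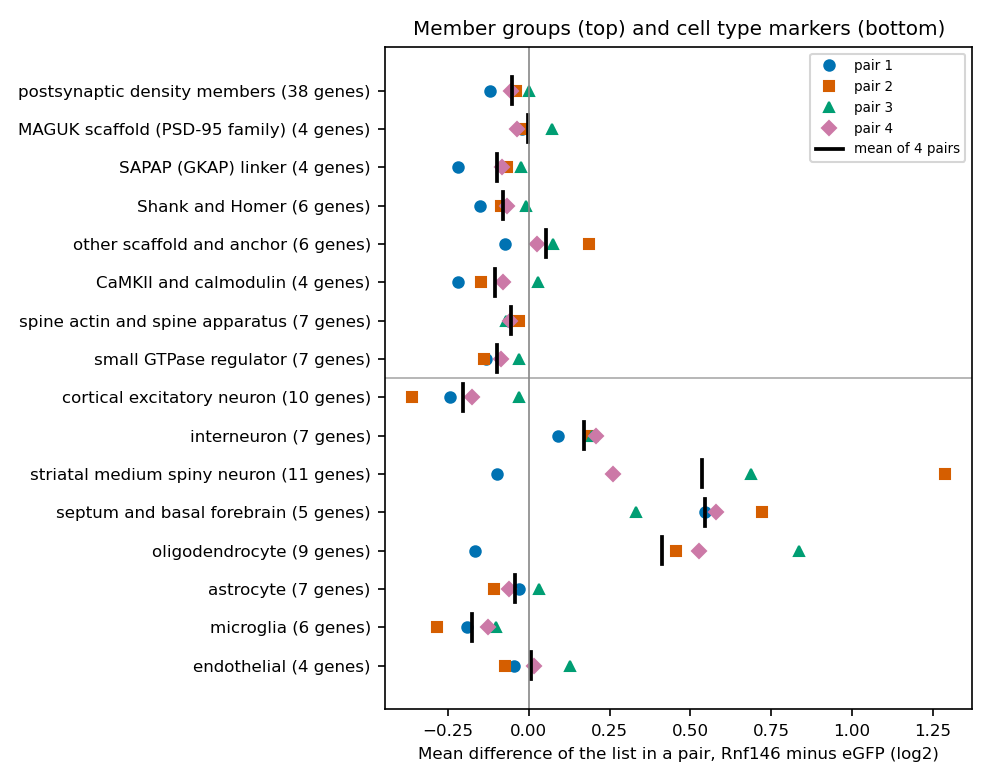
Mean log2 difference (Rnf146 minus eGFP) in each of the 4 pairs (symbols) and their mean (black bar) for all 38 members, their 7 role groups and 8 lists of cell type markers. The member groups stay between -0.22 and 0.19 in every pair, while the striatal list runs from -0.10 to 1.29.

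Other genes of the postsynaptic side had differences of both signs in like numbers. In 6 further lists, 99 of 103 genes had values, of which limma called 0, against 1.25% of all genes. It gave 16 an unadjusted p under 0.05, 7 lower (7.07%) and 9 higher (9.09%), against 5.98% and 6.45% of all genes. The median difference of the 99 genes was 0.00, and 49 of them had a mean below 0. The 17 glutamate receptor and auxiliary subunit genes had a median of -0.01, and the largest difference was that of *Shisa6*, which encodes an auxiliary subunit of AMPA receptors, at 0.28 ± 0.14 (adjusted p = 0.116 from limma). Among 15 adhesion and organizer genes the median was 0.01 and the largest difference 0.15 in *Slitrk1*. The largest difference was 0.19 in *Prkar2b*, a regulatory subunit of protein kinase A, among 12 kinase and phosphatase genes with a median of 0.02. It was 0.18 in *Pak3*, a Rac-activated kinase, among 16 other spine actin genes with a median of 0.01. Of 25 relatives of the members by family, 21 had values, with a median of 0.00, and *Rasal3*, a relative of *Rasal1*, had -0.26 ± 0.25. None of these differences was called, and the difference between these lists and the 38 genes was not tested.

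The 38 genes lie on 19 chromosomes, with *Dlg3*, *Cnksr2* and *Iqsec2* on the X chromosome. Their transcripts are long: the median of the longest annotated transcript was 6936 bases, against 4366 for all genes and 5572 for the genes in the top 10% of mean values. The median GC content of those transcripts was 52.1%, against 49.0% and 49.8%. With the pair differences corrected for GC content and transcript length, *Synpo* was the one member called, with an adjusted p of 0.046 from limma. The annotation lists between 3 and 113 transcripts per member, with a median of 21.5, and a gene-level value does not separate the transcripts of a gene.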

How the data were processed

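RNA sequencing of PFC tissue gave 8 libraries, 4 per group, and the groups and replicate numbers came from the sample labels. The authors prepared stranded libraries, removed adapters and low-quality bases using Cutadapt, and estimated transcript abundance with Salmon 1.9.0 on GENCODE vM30 (GRCm39). The deposited values are log2 values that the authors had centred within same-numbered pairs; the transformation and the centring are not given in the sources used here. All 8 columns were used. Since the centring fixes the correlation of same-numbered libraries at -1, the pairs were taken from the values as well as the labels, and neither depth nor counts can be recovered.

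Pair differences were tested by limma 3.58.1 under R 4.3.3 (lmFit with the replicate number as a block, eBayes with trend) over all 15039 genes, with Benjamini-Hochberg adjustment over all of them. The script was tested on simulated data. With 4 pairs, no exact sign-flip p can fall under 0.125 (two-sided), so none was run. Coordinates, lengths and GC content came from GENCODE vM39 (GRCm39), matched by symbol for 14590 genes (97.0%). The alternatives were no block, median centring, quantile normalization, a filter on the lowest 25% of mean values, no trend, robust variances, array weights, correction for GC content and length, an adjusted p of 0.05, and each pair left out. The members, the gene lists and the block were chosen with earlier results of these data known. All pair or library values are given for members that were called or had the largest or smallest mean of their role group, and for others chosen after their values were seen; from the related lists, the gene with the largest difference is named. Of the 6 related lists, 1 enters the counts over all of them and its own values are not reported here. Python 3.11.15 was used for the remaining steps.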

Additional observations from a re-analysis of the deposited data

Results flagged for a closer look

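In 4 of the 38 genes, 1 of the 4 pair differences stood apart from the other 3 by more than Dixon's 95% critical value for the gap divided by the range of 4 values. This is 10.5% of the list, where chance flags about 1 in 20 groups and 810 of 15039 genes (5.39%) were flagged in the whole table. In *Iqsec2* (ratio 0.976) pair 1 was near 0 while the others were lower. In *Dlgap1* (0.943) pair 1 was above 0 and the others below. In *Add2* (0.865) pair 2 was the one above 0, and in *Homer2* (0.850) pair 3 was the one below 0.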

How the results depend on the processing

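Without the replicate block, which takes the centred values for 8 independent libraries, 10 of the 38 members and 24 of the 99 related genes were called, along with 21.5% of all genes. With array weights, 2 members (*Synpo* and *Rasal1*) and 3 related genes were called, along with 2.36% of all genes. With each pair left out in turn, between 0 and 2 members and between 0 and 3 related genes were called, and *Synpo* was lost without pair 2 or pair 4, while *Rasal1* was added without pair 1 and *Homer1* without pair 3. The cause was not tested. The other alternatives called *Synpo* alone, and its difference kept its direction under all 12 that refit it. Many of these could not have turned it. The fits without the block, without the trend, with robust variances or with the filter leave mean differences unchanged. Leaving out 1 pair cannot turn a gene that is lower in all 4 pairs. The mean of *Agap2* turned to 0.021 after quantile normalization, 0.011 with array weights and 0.036 after correction for GC content and length, and ran from -0.041 to 0.025 with 1 pair left out, and that of *Camk2b* from -0.026 to 0.046. Of the 38 members, 28 kept their direction under every alternative that gave a value and could change a mean difference. The 10 others had means within 0.05 of 0. After quantile normalization 27 members were below 0. The 95% intervals reached a median of 0.12 to either side of a member's mean, which limits what 4 pairs can tell from 0.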
